A study of Mus musculus with 3 samples.

Results

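The brush border hydrolases are enzymes anchored in the apical membrane of the small intestine, and 9 of their genes were followed by name among the 22100 gene symbols of the data: Lct, Sis, Treh, Mgam, Anpep, Dpp4, Alpi, Enpep and Tmprss15. At least 1 count was found for 8 of the 9 genes at E15.5, for 7 at E17.5 and for 8 at P7. Whole small intestine came from untreated, wild-type mice at the embryonic stages E15.5 and E17.5 and at postnatal day 7 (P7), in a study of how the gut elongates. Each stage is 1 single-cell library (Chromium 3′ v2), in which every captured transcript is tagged near its 3′ end with a unique molecular identifier (UMI). Separately dissociated epithelial and mesenchymal fractions were pooled again and sorted for viable cells, either Epcam-positive (epithelial) or negative for Epcam, CD31 and CD45, so the sort and the pooling set the share of epithelial cells. The sources used here do not give the strain, the sex, the number of animals per library or each cell's position along the gut.

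The brush border is the layer of microvilli on absorptive enterocytes, the cells that take up nutrients. Its disaccharidases split sugars: lactase (Lct) splits milk sugar and is known as an enzyme of the suckling period, while sucrase-isomaltase (Sis), maltase-glucoamylase (Mgam) and trehalase (Treh) act on sucrose, starch fragments and trehalose, and Sis and Treh are known to be induced around weaning in rodents. Its peptidases trim peptides from their ends: aminopeptidase N (Anpep), glutamyl aminopeptidase (Enpep) and dipeptidyl peptidase 4 (Dpp4). Intestinal alkaline phosphatase (Alpi) removes phosphate groups, and enteropeptidase (Tmprss15) activates pancreatic trypsinogen in the duodenum. In suckling rodents the distal gut also holds enterocytes with large lysosomes that take up whole milk proteins.

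The libraries held 8447, 11598 and 8391 cells at E15.5, E17.5 and P7, and the median cell had 8503, 6262.5 and 14014 UMIs. After removal of 243, 453 and 389 likely doublets, clusters with epithelial markers held 1292, 1563 and 6046 cells. Those cells were sorted into kinds by the UMIs of marker lists per 10000 UMIs of the cell, with none of the 9 genes among the markers or in the clustering: goblet-like, enteroendocrine-like or Paneth-like (100 or more), then absorptive (100 or more), then crypt-like (20 or more), and the rest ungated. Absorptive cells with 50 or more UMIs of lysosomal and endocytic markers (such as Lgmn, Cubn and Dab2) are called lysosome-rich and the others lysosome-low. The absorptive kinds held 237, 430 and 2842 cells, or 18.3%, 27.5% and 47.0% of the epithelial cells. Of the 11 absorptive markers, 11 were at least 2-fold higher than in the other epithelial cells and present in at least 25% of cells in the lysosome-low kind of both embryonic stages, and 7 at P7. The same markers set the absorptive gate, so this outcome was in part fixed in advance. Enteroendocrine-like cells numbered 46, 105 and 215 and goblet-like cells 76, 247 and 595. Crypt-like cells numbered 1, 19 and 1349, so crypts can be described at P7 only. Levels are counts per 1000000 (CPM), the UMIs of a gene per 1000000 UMIs of that kind, not scaled per length, with a 95% Poisson interval in brackets. These kinds are ranges of a score: 101, 78 and 156 cells lay within 20% of the absorptive gate, and 372 cells at P7 within 20% of the lysosome gate. There was 1 library per stage, hence no test between stages or kinds, and every interval covers counting error only.

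Lct lies at chr1:128284756-128328318 (minus strand), Alpi at chr1:87098002-87101606 (minus), Mgam at chr6:40628831-40769123 (plus) and Sis at chr3:72888557-72967863 (minus) on GRCm38. Anpep lies at chr7:79821803-79861059 (minus), Enpep at chr3:129269175-129332720 (minus) and Dpp4 at chr2:62330073-62412231 (minus), where an antisense gene overlaps it. Treh lies at chr9:44673233-44686305 (plus) and Tmprss15 at chr16:78953008-79091097 (minus). Upstream sequences of 4 genes are shown because they stand for the 3 patterns described further on: Lct and Alpi for absorptive cells, Mgam for a gene of crypt and absorptive cells alike, and Sis for enteroendocrine-like cells. Each is the 250 bases before the RefSeq start on GRCm38.p6, read 5′ to 3′ on the gene's strand. Capitals mark matches on either strand to 3 motifs, which may overlap each other. The first is the GATA factor motif in the form GATAA. The second is the motif of the CDX factors in the form TTTAT. The third is a half-site of the HNF1 factors in the form GTTAAT. The complement of the CDX letters is also part of a TATA box.
Lct, chr1:128328319-128328568, minus strand: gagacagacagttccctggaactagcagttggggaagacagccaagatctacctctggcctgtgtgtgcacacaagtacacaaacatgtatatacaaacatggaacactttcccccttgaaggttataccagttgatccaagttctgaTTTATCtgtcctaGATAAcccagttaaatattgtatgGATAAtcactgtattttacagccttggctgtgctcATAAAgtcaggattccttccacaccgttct
Alpi, chr1:87101607-87101856, minus strand: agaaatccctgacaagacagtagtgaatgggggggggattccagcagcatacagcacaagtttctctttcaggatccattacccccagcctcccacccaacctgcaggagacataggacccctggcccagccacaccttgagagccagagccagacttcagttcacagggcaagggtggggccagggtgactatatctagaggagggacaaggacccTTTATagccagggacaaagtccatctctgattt
Mgam, chr6:40628581-40628830, plus strand: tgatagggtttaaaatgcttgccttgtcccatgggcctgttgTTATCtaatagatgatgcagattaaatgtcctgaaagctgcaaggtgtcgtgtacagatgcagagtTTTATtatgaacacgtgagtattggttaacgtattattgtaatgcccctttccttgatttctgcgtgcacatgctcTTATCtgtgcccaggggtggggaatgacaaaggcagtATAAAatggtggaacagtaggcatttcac
Sis, chr3:72967864-72968113, minus strand: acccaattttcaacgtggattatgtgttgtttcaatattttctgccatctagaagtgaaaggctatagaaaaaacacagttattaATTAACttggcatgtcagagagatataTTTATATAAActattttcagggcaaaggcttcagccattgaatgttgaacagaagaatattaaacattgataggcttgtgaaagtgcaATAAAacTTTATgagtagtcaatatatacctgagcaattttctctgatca
The GATA motif was found 3 times before Lct, 2 times before Mgam and 0 times before Alpi and Sis. The CDX motif was found 2 times before Lct, 2 times before Mgam, 1 time before Alpi and 4 times before Sis, whose window also held the 1 match to the HNF1 half-site. Among 32851 windows of the same length before other genes and these, 22.6% held the GATA motif, 37.3% the CDX motif and 6.43% the HNF1 half-site. These matches describe the letters only, and whether a factor binds any of them was not tested.

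In absorptive cells Lct and Alpi were higher at each later stage. The level of Lct, lactase, was 86.8 CPM [79.1, 95.0] at E15.5, 284 CPM [272, 297] at E17.5 and 580 CPM [573, 587] at P7. Alpi, the alkaline phosphatase, stood at 103 CPM [94.3, 112], 205 CPM [195, 216] and 522 CPM [516, 528] in the same order. No 2 stages overlapped in their intervals for either gene, and P7 was highest. The log2 ratio for Lct was 1.71 [1.57, 1.86] from E15.5 to E17.5 and 1.03 [0.97, 1.09] from E17.5 to P7, and for Alpi 1.00 [0.86, 1.14] and 1.35 [1.27, 1.42]. With all cells thinned to 4000 UMIs, Lct was found in 25.0%, 46.6% and 72.7% of absorptive cells, and unthinned in 58.6%, 67.4% and 87.3%. At P7 4.0% of thinned fibroblast-like cells, which should lack lactase, also held a Lct UMI (median depths 17450.5 and 4598.5 UMIs).

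Over all absorptive cells the peptidases and Mgam differed less between stages than Lct and Alpi. Anpep, aminopeptidase N, was at 214, 271 and 339 CPM in absorptive cells at E15.5, E17.5 and P7, higher at each later stage beyond counting error. Dpp4 was at 123, 126 and 148 CPM, and the first 2 stages had overlapping intervals ([114, 133] and [118, 135]). Enpep, glutamyl aminopeptidase, was at 147, 121 and 211 CPM, lowest at E17.5. The mix of absorptive cells differed between these stages, with 40 of 430 lysosome-rich at E17.5 and 1771 of 2842 at P7. Mgam, maltase-glucoamylase, was at 93.4, 142 and 126 CPM, highest at E17.5. From E17.5 to P7 its log2 ratio was −0.17 [−0.27, −0.08]. Of the 6 genes with counts in absorptive cells of every stage, 1 (Lct) was at least 2-fold higher at E17.5 than at E15.5, and 2 (Lct and Alpi) at P7 than at E17.5. None was at least 2-fold lower in either step. Among all genes tested (30 or more UMIs over both groups), 6.67% were at least 2-fold higher and 7.19% lower in the first step, and 12.4% and 9.33% in the second. The median gene had a log2 ratio of −0.18 in the first step. Alpi was just under 2-fold in the first step. The Lct call of the second step was lost under stricter gates (0.79) and when scaled to the median gene (0.97).

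Within each absorptive kind the step from E17.5 to P7 looked different. In lysosome-low cells Anpep (1.21) and Lct (1.06) were at least 2-fold higher, Alpi was at 0.67 and Enpep at −0.31 [−0.44, −0.18]. Among all genes tested in that kind, 9.45% were at least 2-fold higher and 7.79% lower. In lysosome-rich cells, 40 of them at E17.5, Lct was at 0.14 [−0.03, 0.32], Alpi at 1.49 and Enpep at −0.11 [−0.34, 0.12]. Enpep was thus higher at P7 in neither kind, although it was higher over both together. At least 4 of the 6 genes were found together in 14.0% of thinned absorptive cells at E15.5, 26.9% at E17.5 and 44.4% at P7.

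**Figure D1:**
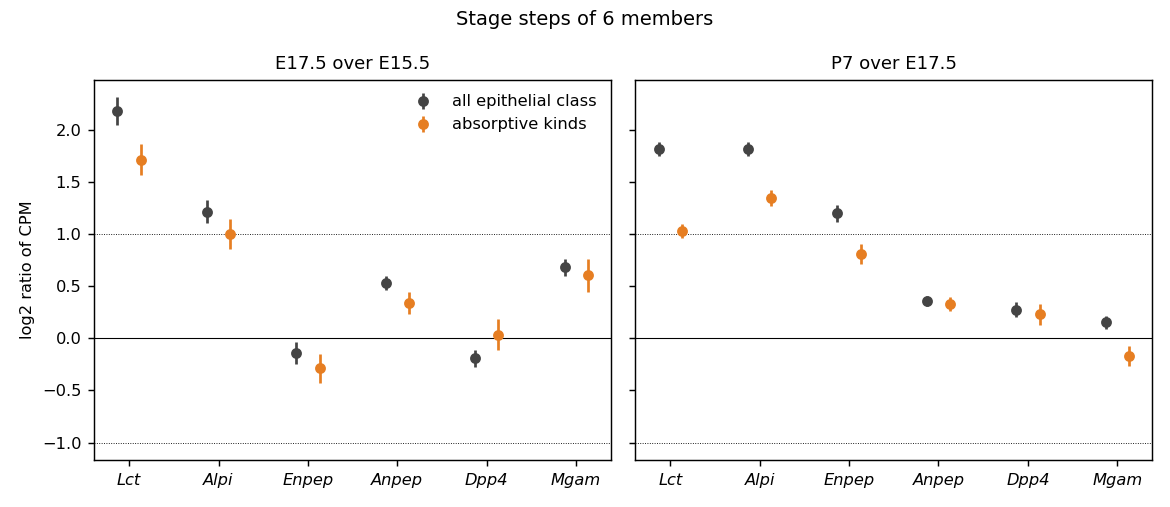
Log2 ratios of CPM (y axis) of 6 genes (x axis) from E15.5 to E17.5 and from E17.5 to P7, in all epithelial cells (grey) and in absorptive cells (orange), with bars for the 95% counting interval and dotted lines at 2-fold. Lct and Alpi stand highest in both steps, and in absorptive cells, whose share of lysosome-rich cells differs between the stages, Enpep goes from −0.29 to 0.81 and Mgam from 0.60 to −0.17.

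The absorptive cells of the 3 stages were not alike in how strongly they expressed the absorptive markers. Their median absorptive marker score was 157 UMIs per 10000 at E15.5, 554 at E17.5 and 733 at P7, and among absorptive cells Lct was higher in those of higher score at every stage. Within lysosome-low cells of 1 range of score, from 100 to 300, Lct was at 73.6 CPM at E15.5, 53.9 CPM at E17.5 and 113 CPM at P7. The first step thereby turned over, to a log2 ratio of −0.45 [−0.75, −0.16], from 211 and 136 cells. Between scores of 300 and 800 it was 0.69 [0.41, 0.99], with 25 cells at E15.5. The second step stayed above 0 in 3 ranges of score, at 1.07, 0.32 and 0.82. Alpi kept its direction in every range, at 0.60 and 0.41 in the first step and 0.46, 0.29 and 0.75 in the second, all under 2-fold. Enpep in these lysosome-low cells gave −0.26 and −0.60 in the first step, and in the second 0.07, −0.23 and −0.38. Anpep was higher at P7 than at E17.5 in each range, at 0.87, 1.28 and 1.48, the upper 2 past 2-fold. Mgam gave 0.45, −0.67 and −1.10 in the same ranges, and 0.35 and 1.14 in the first step. Dpp4 stayed between −0.22 and 0.34. These ranges were chosen after the data had been seen.

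Over all epithelial cells, whose share of absorptive cells differed between stages, the steps of Lct and Alpi were wider. Lct was at 19.7, 88.9 and 313 CPM and Alpi at 35.2, 81.7 and 288 CPM over the epithelial class at E15.5, E17.5 and P7. Enpep was at 58.7, 53.4 and 123 CPM. Of the 6 genes, 2 (Lct and Alpi) had at least 2-fold higher levels in the first step, where 7.56% of all tested genes did, and 3 (Lct, Alpi and Enpep) in the second, where 12.3% did. None was lower by that fold (background 4.7% and 9.6%). How the sort and the pooling of fractions bear on this mix was not tested.

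**Figure D2:**
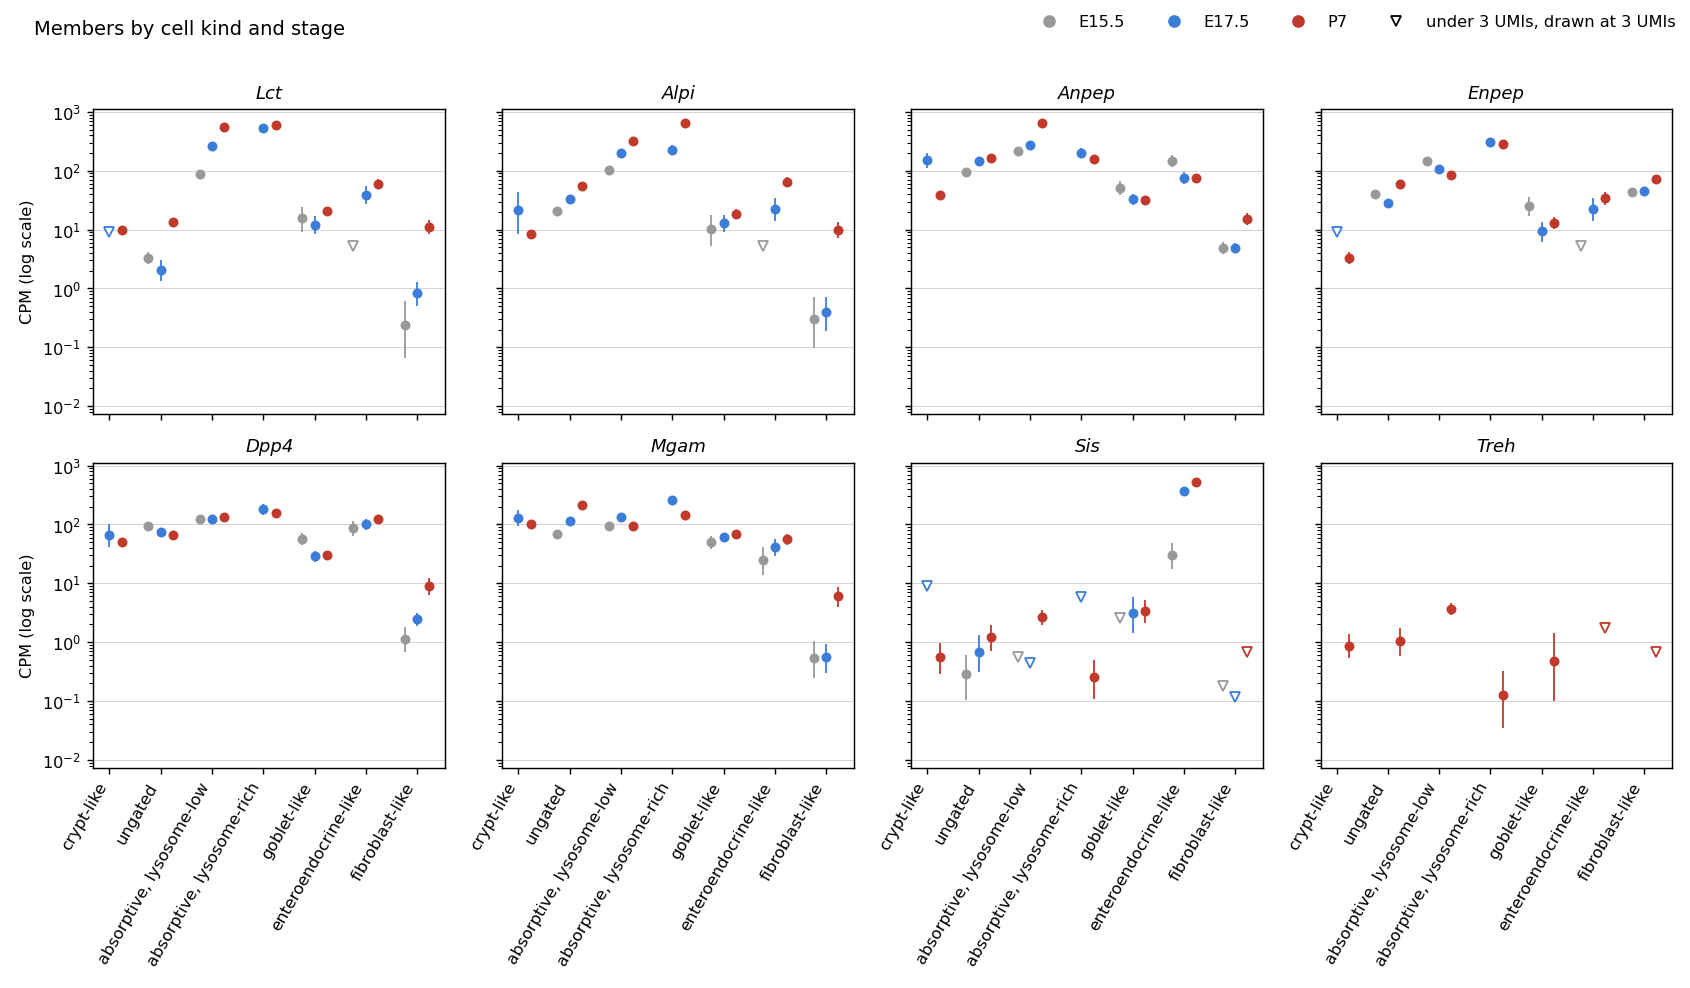
CPM on a log axis (y axis) of 8 genes in 7 cell kinds (x axis) at E15.5 (grey), E17.5 (blue) and P7 (red), with 95% Poisson bars and open triangles at the level of 3 UMIs where fewer were counted. Kinds of fewer than 19 cells are left out, and Treh is drawn for P7 only. Lct and Alpi stand high in the absorptive kinds, Mgam and Dpp4 are spread over the epithelium, and Sis stands at 376 and 537 CPM in enteroendocrine-like cells.

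At P7 the 2 absorptive kinds differed in their levels of Anpep and Enpep, while both held all 3 peptidases. Anpep was at 640 CPM in 1071 lysosome-low cells and 157 CPM in 1771 lysosome-rich cells, a log2 ratio of rich over low of −2.02 [−2.07, −1.98]. Enpep went the other way, at 86.2 and 287 CPM, with a log2 ratio of 1.74 [1.66, 1.81]. Both peptidases cut residues from the amino end of peptides, Enpep at acidic ones. Alpi was at 324 and 642 CPM (0.99 [0.95, 1.03]) and Mgam at 92.4 and 146 CPM (0.66 [0.58, 0.74]). Lct differed little between the kinds, at 554 and 596 CPM (0.11 [0.07, 0.14]), and so did Dpp4, at 134 and 157 CPM (0.23 [0.16, 0.30]). At least 2-fold differences were thus found for Enpep upward (background 11.4%) and for Anpep downward (background 8.41%). Treh and Sis, both sparse, were also lower in lysosome-rich cells: Treh was at 3.65 and 0.126 CPM (70 and 4 UMIs) and Sis at 2.66 and 0.253 CPM (51 and 8 UMIs).

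Genes known as markers of gut segments also differed between the kinds. Of the proximal segment genes, Onecut2 was at 195 CPM in lysosome-low and 9.25 CPM in lysosome-rich cells, Pdx1 at 11.0 and 0.695 CPM and Gata4 at 39.6 and 17.6 CPM, while the distal gene Fabp6, an ileal bile acid binding protein, was at 98.3 and 199 CPM. Fabp6 was the 1 of 4 distal genes at least 2-fold higher in lysosome-rich cells. Of 4 proximal genes tested, 3 were at least 2-fold lower there, and Creb3l3 was not. Among all genes tested 11.4% were higher and 8.41% lower by that fold. Cells were therefore also divided by UMIs of Onecut2, Pdx1 or Gata4 (proximal) and of Fabp6 or Fgf15 (distal), a division made after seeing the data. Proximal markers alone were found in 66.4% of lysosome-low and 9.43% of lysosome-rich cells, and distal markers alone in 11.3% and 44.2%.

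The Anpep difference was present within each marker class. In cells with proximal markers alone Anpep was at 649 CPM in lysosome-low and 163 CPM in lysosome-rich cells, and in cells with distal markers alone at 545 and 164 CPM, log2 ratios of −1.99 [−2.13, −1.86] and −1.73 [−1.83, −1.63]. Alpi likewise gave 0.99 and 1.15. For Enpep the classes differed: 32.7 against 199 CPM with proximal markers (log2 2.61 [2.42, 2.79]) and 241 against 320 CPM with distal markers (0.41 [0.28, 0.54]). Enpep was thus lowest in lysosome-low cells with proximal markers, and these 2 intervals do not overlap. Mgam changed sign, at 0.24 [0.01, 0.46] with proximal and −0.36 [−0.50, −0.22] with distal markers. Mgam was at 59.9 and 70.7 CPM in the proximal class and at 224 and 175 CPM in the distal class. Lct was higher in lysosome-rich cells with proximal (0.43) or distal (0.57) markers and lower in those with neither (−0.61), where 53 lysosome-low cells were counted. How far a UMI of 1 marker places a cell along the gut was not tested.

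**Figure D3:**
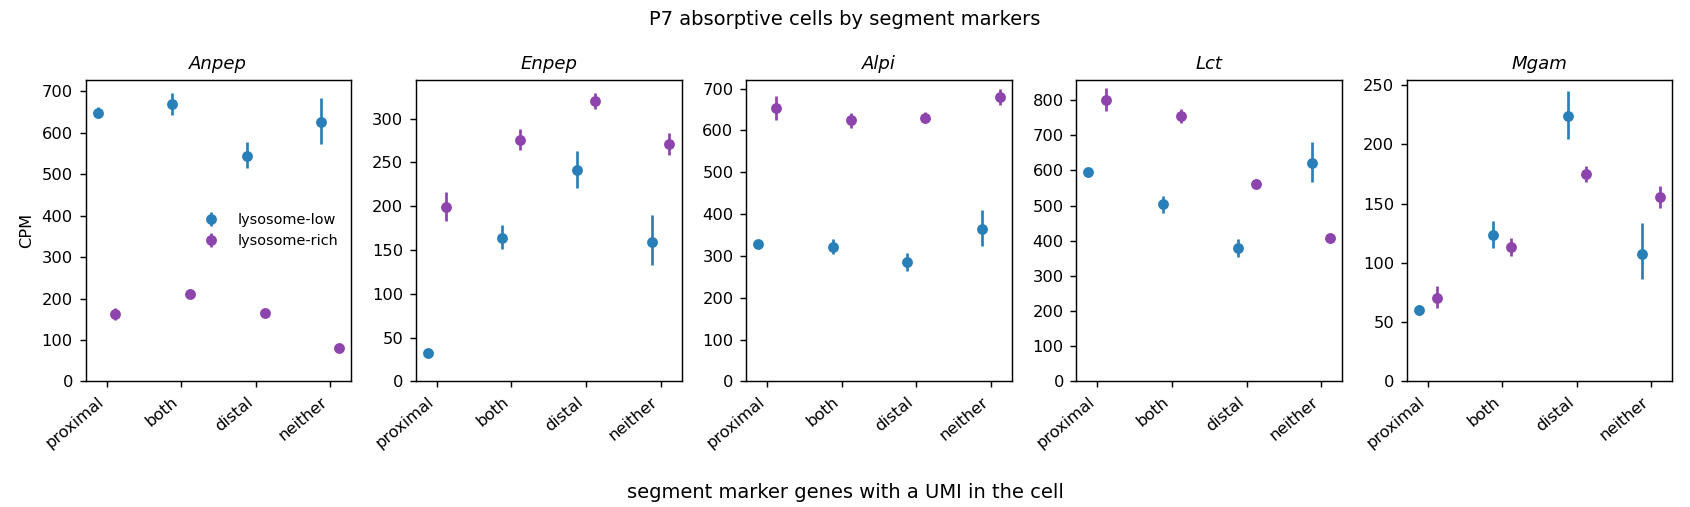
CPM (y axis) of 5 genes in P7 absorptive cells with UMIs of proximal markers only, of both kinds of marker, of distal markers only or of neither (x axis), for lysosome-low (blue) and lysosome-rich (purple) cells, with 95% Poisson bars. Anpep is higher in the blue points of all 4 classes, Alpi in the purple ones, and Enpep is at 32.7 CPM in the proximal lysosome-low cells.

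From an absorptive score of 50 upward, Lct and Mgam ran in opposite directions at P7. In cells with a lysosome score of 50 and over Lct was at 14.4 CPM for a score of 50 to 100 (27 cells), 122 CPM for 100 to 300, 476 CPM for 300 to 800 and 871 CPM for 800 and over. Mgam in the same 4 ranges was at 563, 367, 156 and 51.6 CPM. Neighbouring ranges did not overlap in their intervals for either gene. In cells below that lysosome score Mgam was at 224 CPM for 50 to 100 and 56.7 CPM for 800 and over, and Lct at 23.8 and 833 CPM. Under a score of 50 there was no such order: Mgam was at 140 CPM below 20 and 117 CPM from 20 to 50, under its 224 CPM in the next range. In single P7 absorptive cells thinned to 4000 UMIs, Mgam was found in 26.3% of the 2039 cells with Lct and in 47.1% of the 765 cells without it. The absorptive markers are part of the totals behind each CPM. Leaving them out moved the 39 log2 ratios between kinds or stages by at most 0.12, and the ranges of score were not recomputed that way. At E17.5 Mgam did not show this order, at 122, 153 and 122 CPM in lysosome-low cells of the 3 upper ranges.

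**Figure D4:**
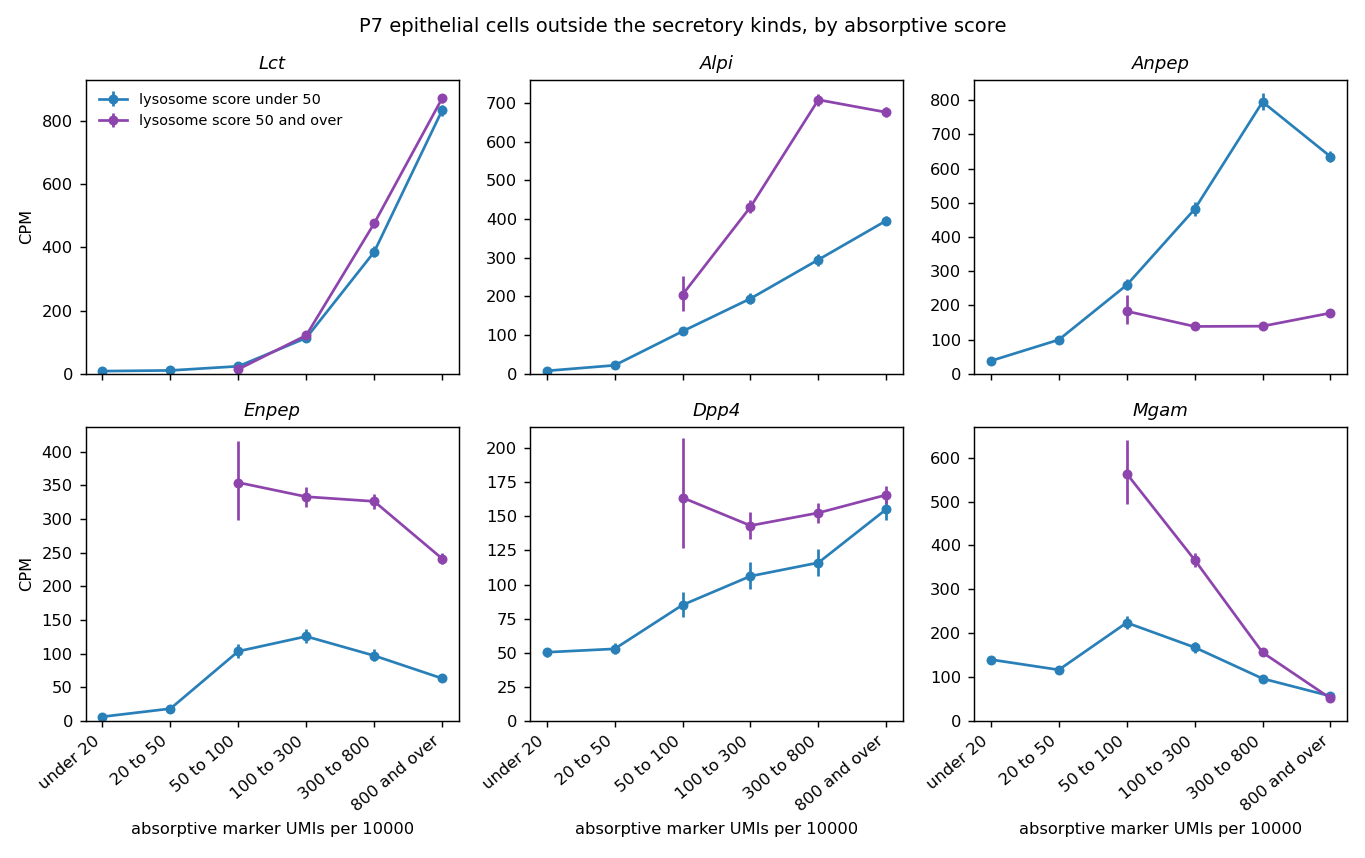
CPM (y axis) of 6 genes in P7 epithelial cells outside the secretory kinds, by absorptive marker UMIs per 10000 of the cell (x axis), for cells with a lysosome marker score under 50 (blue) or of 50 and over (purple), with 95% Poisson bars. Lct climbs to 833 and 871 CPM at the highest score while Mgam is at 56.7 and 51.6 CPM there, and Anpep is at 635 CPM (blue) and 178 CPM (purple).

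At P7 the 6 genes differed by degrees in how far their crypt-like level lay below the absorptive one. In crypt-like cells, which hold stem and dividing cells, Mgam was at 101 CPM [97.2, 106], against 126 CPM in absorptive cells (log2 ratio −0.31 [−0.38, −0.24]). Dpp4 was at 50.5 CPM and Anpep at 38.0 CPM there, log2 ratios of −1.55 and −3.16. Lct, Alpi and Enpep were at 9.70, 8.45 and 3.32 CPM, log2 ratios of −5.90, −5.95 and −5.99 to absorptive cells. In crypt-like cells 5 of the 6 genes were at least 2-fold lower (background 20.1%), and 0 were higher (background 26.3%). Fibroblast-like cells, which should lack lactase and the intestinal alkaline phosphatase, held 11.1 CPM of Lct and 10.03 CPM of Alpi at P7. The crypt levels of both genes are thus at this background. Counted per 1000 UMIs of Apoa4, an abundant enterocyte gene, Lct gave 31.5 in absorptive, 38.1 in crypt-like and 36.5 in fibroblast-like cells, and Alpi gave 28.3, 33.2 and 32.9. Mgam gave 6.83, 399 and 19.7, so its crypt UMIs were far above that shared ratio. Dpp4 gave 8.05, 199 and 29.2 and Anpep 18.4, 150 and 50.4.

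Ungated epithelial cells held Mgam at 67.8 CPM at E15.5, 115 CPM at E17.5 and 211 CPM at P7, higher at each later stage beyond counting error. In the same cells Anpep was at 93.9, 147 and 164 CPM, Dpp4 at 93.9, 75.0 and 65.5 CPM, and Lct at 3.35, 2.06 and 13.3 CPM. Against the ungated cells, Lct in absorptive cells had a log2 ratio of 4.69 at E15.5 and 7.11 at E17.5, while Mgam had 0.46 and 0.31. At least 2-fold higher in absorptive cells were 4 of the 6 genes at E15.5 (Lct, Alpi, Enpep and Anpep; background 6.44%) and 3 at E17.5 (Lct, Alpi and Enpep; background 12.7%). Dpp4 in enteroendocrine-like cells was at 87.1, 100.3 and 125 CPM, against 56.8, 29.0 and 30.6 CPM in goblet-like cells. At P7 this Dpp4 difference was a log2 ratio of 2.03 [1.74, 2.32], where 19.3% of all tested genes were at least 2-fold higher. It was not particular to Dpp4: Alpi (1.83), Lct (1.56), Enpep (1.40) and Anpep (1.27) also passed 2-fold, and Mgam (−0.29) did not. Apoa4 was at 1688 CPM in these enteroendocrine-like and 507 CPM in these goblet-like cells. Per 1000 Apoa4 UMIs, Dpp4 gave 74.1 and 60.4, above its 8.05 in absorptive and 29.2 in fibroblast-like cells. Lct gave 35.8 and 40.6 and Alpi 38.6 and 36.1, nearer to their 31.5 and 28.3 in absorptive cells. By this measure Dpp4 thus differed from Lct and Alpi in enteroendocrine-like cells. How much of each level is free RNA was not tested.

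Sis, sucrase-isomaltase, was found mostly in enteroendocrine-like cells and hardly in absorptive cells. Enteroendocrine-like cells are the hormone-producing cells of the gut lining. Their Sis level was 30.2 CPM [17.6, 48.4] at E15.5, 376 CPM [337, 419] at E17.5 and 537 CPM [503, 573] at P7. In both embryonic libraries absorptive cells held 0 Sis UMIs, where the floor of 3 UMIs over the group stands at 0.556 and 0.408 CPM. At P7 absorptive cells held 1.16 CPM [0.884, 1.497]. Enteroendocrine-like cells made up 3.56%, 6.72% and 3.56% of the epithelial cells and held 73.9%, 94.9% and 88.8% of the epithelial Sis UMIs (17 of 23, 334 of 352 and 923 of 1039). At P7 the log2 ratio to absorptive cells was 8.85 [8.47, 9.26] and that to goblet-like cells 7.30 [6.68, 8.00], where 34.3% and 19.3% of all tested genes were at least 2-fold higher in enteroendocrine-like cells.

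Thinned to 4000 UMIs, 57.6% of 92 enteroendocrine-like cells at E17.5 and 59.5% of 168 at P7 held Sis, and unthinned 70.5% and 71.6%. In thinned P7 cells Sis was found in 1.76% of goblet-like and 0.535% of absorptive cells, whose median depths were 9781 and 17450.5 UMIs against 6680 in enteroendocrine-like cells. Up to 33 Sis UMIs were counted in 1 cell at P7. Among genes found in most P7 enteroendocrine-like cells, Sis was the ninth by fold over the other epithelial cells, with 20 CPM added to both levels. It had no part in defining the kind. Hormone genes found in fewer of the cells were left out of this order. Of the 168 thinned P7 cells, Lct was found in 6.0% of the 100 with Sis and in 11.8% of the 68 without. Of the other 6 genes with epithelial counts at all stages, 5 were at least 2-fold lower in P7 enteroendocrine-like than in absorptive cells (background 11.5%), Dpp4 being the exception at −0.25. The epithelium as a whole had a log2 ratio for Sis of −0.41 [−0.59, −0.23] from E17.5 to P7, while within enteroendocrine-like cells it was 0.51 [0.33, 0.70], under the 2-fold that 8.91% of all tested genes passed. With likely doublets kept, only 6 cells passed as enteroendocrine-like at E17.5, against 105, so that setting gives no like comparison of this step (212 CPM, log2 ratio 1.28).

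Among enteroendocrine-like cells Sis went with some hormones and not with others. Each cell was assigned to the hormone gene with the most UMIs of 9 (at least 3 UMIs). At P7 Sis was at 999 CPM in 12 cells led by Nts (neurotensin), 858 CPM in 36 led by Sct (secretin), 583 CPM in 43 led by Cck (cholecystokinin) and 445 CPM in 25 led by Gip. It was at 415 CPM in 62 cells led by Tph1, the enzyme of serotonin synthesis, and 331 CPM in 14 led by Pyy. Cells led by Ghrl (ghrelin) or Sst (somatostatin) were lowest among the groups of 7 or more cells, at 74.5 CPM [24.2, 174] in 7 cells and 16.5 CPM [0.419, 92.2] in 10. All 5 UMIs of the Ghrl group came from 1 cell, and 1 cell held 33 of the 116 Sis UMIs of the Nts group. The intervals of the Ghrl and Sst groups did not overlap those of the 6 others. The neighbours Nts and Sct, Cck and Gip, Gip and Tph1, and Tph1 and Pyy overlapped. Another 4 P7 cells had no leading hormone, with Sis at 1756 CPM [1193, 2493], and 19 of their 31 Sis UMIs came from 1 cell. A further 2 were led by Gcg, with Sis at 45.4 CPM [1.15, 253]. At E17.5 the groups of 7 or more cells stood at 571 CPM with Sct, 365 with Cck, 356 with Gip, 91.7 with Ghrl and 28.4 with Sst. The 3 cells led by Pyy at E17.5 held 0 Sis UMIs (upper bound 129 CPM), unlike the Pyy group of P7. Cells of 1 library are not replicates, so these are values of 2 libraries.

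**Figure D5:**
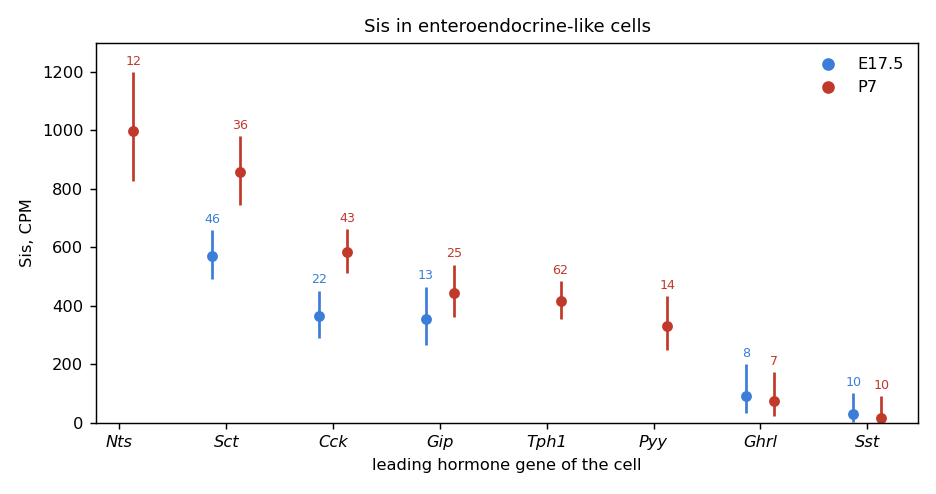
Sis level in CPM (y axis) in enteroendocrine-like cells grouped by their leading hormone gene (x axis), at E17.5 (blue) and P7 (red), with 95% Poisson bars and the number of cells above each. Groups of fewer than 7 cells are left out. Cells led by Ghrl and Sst sit between 16.5 and 91.7 CPM, under the other groups drawn.

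Trehalase and enteropeptidase were at the limit of detection. Treh had 124 UMIs in 110 cells at P7, and 63.1% of its 111 epithelial UMIs were in lysosome-low absorptive cells. Treh lies beyond the last entry of the shared gene list that holds a count in the embryonic libraries, so its 0 UMIs there are not read as a level. Tmprss15 had 4 UMIs in 3 cells at E15.5, none of them epithelial, and 0 UMIs at E17.5 and P7. Whether counts of this gene were removed before deposit is not known, so its 0 UMIs are not read as a level.

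The peptidases Enpep and Anpep were also found outside the clusters named epithelial. Enpep in fibroblast-like cells was at 42.7 CPM [39.6, 46.0] at E15.5, 46.1 CPM [43.5, 48.9] at E17.5 and 73.3 CPM [65.6, 81.7] at P7. In clusters with markers of interstitial cells of Cajal, the pacemaker cells of gut muscle, Enpep was at 219 CPM [197, 244] in 390 cells at E17.5 and 173 CPM [113, 254] in 34 cells at P7. Anpep was at 58.4 CPM [47.1, 71.5] in 63 cells with pancreatic acinar markers at E15.5, against 4.88 CPM in fibroblast-like cells of the same library. Lct, Mgam and Alpi in fibroblast-like cells were under 1 CPM at E15.5 and E17.5.

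Likeness of pattern was measured as Pearson's r of log2(CPM + 1) over 14 stage and kind groups of 50 or more cells, among 11399 genes, as a description: the groups share libraries and depth. Sis was most like Tph1 (r = 0.986), Chga (0.986) and Chgb (0.981), genes of hormone cells and their granules. All of these are markers that set the enteroendocrine gate, so they are high in that kind by its definition. Among the genes most like Alpi were Mamdc4 (0.976), itself a lysosome-rich marker, and Uap1l1 (0.974). Lct had Dnah2 (0.969), Rab11fip3 (0.962) and F10 (0.960), and among those of Anpep were Gamt (0.959) and Lpcat3 (0.954). Dpp4 had Pik3c2a (0.962), Trub2 (0.959) and Cystm1 (0.946), and Enpep had Pdzk1ip1 (0.969), Ppcs (0.967) and Tfec (0.962). For Mgam the highest values were lower, with Extl1 (0.896), Aldh2 (0.888) and Smim8 (0.885). Between members, r was 0.87 for Alpi and Enpep, 0.85 for Lct and Alpi, 0.20 for Lct and Mgam, and −0.55 for Sis and Mgam.

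Most other brush border enzymes were higher in each step over all absorptive cells. Of 17 listed, 12 were tested in absorptive cells between E15.5 and E17.5, with 9 at least 2-fold higher and 2 lower (median log2 1.66, against −0.18 over all genes). Ace, angiotensin-converting enzyme (3.56), and Dpep1 (2.41) were highest and Vnn1 (−1.45) and Xpnpep2 (−1.76) lowest. Over all genes 6.67% were higher and 7.19% lower by that fold. Between E17.5 and P7, 9 of 13 were higher and 2 lower (median 1.62, against 0.13), where 12.4% and 9.33% of all genes were. Within lysosome-low cells the same step gave 4 of 12 higher and 3 lower (median 0.81), where 9.45% and 7.79% of all genes were. Vnn1 (3.22) and Xpnpep2 (2.63) were then highest, and Dpep1 (−2.23) and Ggt1, a glutamyl transferase (−2.77), lowest. Dpep1, Vnn1 and Xpnpep2 thus had the opposite sign to the first step, which was taken over all absorptive cells. The steps of these genes were not compared at a matched absorptive score. In lysosome-rich against lysosome-low cells at P7, 6 of 13 were higher and 2 lower, from Enpp3 (6.64) and Enpp7 (5.70) to Dpep1 (−1.18) and Mme, the peptidase neprilysin (−3.15). In crypt-like cells 13 of 13 were at least 2-fold lower than in absorptive cells, with Xpnpep2 (−2.16) and Vnn1 (−2.38) nearest to the absorptive level, and Enpp7 had no UMI there.

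Over all absorptive cells, transporters of the released sugars and amino acids and the proteins of the microvillus itself had smaller steps than the enzymes. Within lysosome-low cells from E17.5 to P7 the median log2 ratios were closer, at 0.69 for transporters, 0.69 for microvillus genes and 0.81 for the enzymes. There 5 of 13 transporters and 2 of 11 microvillus genes were at least 2-fold higher and 0 lower, where 9.45% and 7.79% of all genes were. The counts that follow are over all absorptive cells. They stand against 6.67% of all genes higher and 7.19% lower in the first step, and 12.4% and 9.33% in the second. Of 12 transporters tested, 4 were 2-fold or more higher in the first step and 0 lower, led by Slc2a2 (2.78), a glucose transporter, and Slc6a19 (1.88), an amino acid transporter, with Slc7a8 (−0.08) and Slc2a5 (−0.25) lowest. At P7 5 of 13 were higher than at E17.5 and 0 lower, with Slc2a5, the fructose transporter (2.64), and Slc1a1 (2.50) at the top and Slc3a1 (0.27) and Slc6a20a (−0.59) at the bottom. Among 11 microvillus genes, 2 were higher in the first step (Cdhr2, 1.20, and Pls1, 1.13) and 4 in the second, led by Cdhr5 (2.10) and Cdhr2 (1.85), protocadherins that link microvillus tips. Of 8 apical trafficking genes, 1 was higher in the first step (Rab11a, 1.09) and 0 in the second, where the values ran from Stx3 (0.65) to Lgals4 (−0.48). Of 18 transcription factors of enterocyte genes, 3 were higher in the first step, led by Creb3l3 (2.26) and Cdx1 (1.41), with Gata4 (−0.74) and Onecut2 (−0.81) lowest. In the second step 3 were higher and 1 lower, with Klf4 (1.26) among the higher and Onecut2 (−0.87) and Hnf4g (−1.48) lowest.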

How the data were processed

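The matrices deposited by the authors hold UMI counts, which are whole numbers and sum to different totals per cell, as raw counts do. Cell Ranger 7.2.0 with mm10 and GRCm38 is named in the submitters' processing notes, with no parameters. Totals were 93501273, 94023160 and 116038115 UMIs at E15.5, E17.5 and P7, and the same 8447 barcode names came with each library, so barcodes were not used. Doublets were removed with Scrublet as run by scanpy 1.11.5 (expected rate 6%), and each library was clustered with Leiden (2000 variable genes, 30 components, 15 neighbours, resolution 1), leaving out the 9 genes. Clusters were named from marker lists by the mean of the 5 best log2 scores (pseudocount 20 CPM, at least 3 markers detected, margin 1). The gates on marker UMIs per 10000 were set after seeing the data, and cells within 20% of the absorptive gate numbered 101, 78 and 156. UMIs were summed per kind. Intervals at 95% are exact Poisson for levels, Clopper-Pearson for shares and conditional binomial for ratios. Those for ratios were checked on simulated Poisson counts, which hold counting error only and no variation between cells or libraries. Ratios with fewer than 3 UMIs use a floor of 3, and a gene was tested with 30 UMIs over both groups.

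Levels of absorptive, crypt-like, goblet-like, enteroendocrine-like and ungated cells were compared within and between libraries. Alternatives were other scalings, gates, clusterings, thinnings and a subtraction of free RNA. The text names the 9 genes throughout, the 2 highest and 2 lowest ratios of each brush border list, and for likeness the 3 genes of highest r. Some genes that this rule selects are not reported here. The genes and lists were chosen with earlier results of these data known. Folh1 and Akp3 of the enzyme list were not analysed here.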

Additional observations from a re-analysis of the deposited data

Results flagged for a closer look

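From E17.5 to P7 some genes were higher in 1 kind of epithelial cell and lower in another, each beyond counting error. These differences were not tested, since each stage is 1 library. For Mgam the log2 ratio was 0.88 in ungated epithelial cells and −0.83 in lysosome-rich absorptive cells, of which E17.5 held 40. Anpep gave 1.21 in lysosome-low and −0.34 in lysosome-rich absorptive cells. Enpep gave 1.06 in ungated epithelial cells and −0.31 in lysosome-low absorptive cells. Dpp4 differed least, with 0.13 in lysosome-low absorptive cells and −0.20 in ungated epithelial cells. Ungated cells are defined by the absence of other markers, so their make-up can differ between the stages.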

How the results depend on the processing

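No paired analysis was possible because each stage is 1 library and no result comes from a test between replicates. The finer clustering at resolution 2 gave epithelial kinds with the same numbers of cells and UMIs at each stage. All 39 log2 ratios of members therefore kept their value, and that setting could not show how they depend on the clustering. With likely doublets kept, only 6 cells passed as enteroendocrine-like at E17.5, against 105, so that kind's stage step there (Sis 1.28) is no like comparison. In that setting, with the 9 genes kept in the clustering or with totals free of mitochondrial and haemoglobin genes, all 39 kept their direction, and the 17 ratios past 2-fold stayed past it. Under stricter gates 38 of 39 kept their direction and 16 of 17 stayed past 2-fold. The exceptions were Lct in lysosome-rich over lysosome-low cells, which went from 0.11 to −0.10, and Lct from E17.5 to P7 in absorptive cells, which went from 1.03 to 0.79. Taking means over cells, 38 of 39 kept their direction, the exception being Dpp4 from E15.5 to E17.5 in absorptive cells (0.03 to −0.03). At a matched absorptive score of 100 to 300, Lct from E15.5 to E17.5 was −0.45.

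The Lct level at P7 was 566 CPM with doublets kept, 640 under stricter gates, 569 as a mean over cells and 643 without mitochondrial and haemoglobin genes. The Sis level in P7 enteroendocrine-like cells was 618 CPM under stricter gates, 714 as a mean over cells and 580 without cells that also passed the absorptive gate. Its log2 ratio to absorptive cells was 9.28 as a mean over cells. Anpep in lysosome-rich over lysosome-low cells was −2.25 under stricter gates, −2.11 as a mean over cells, −2.14 with free RNA subtracted, and −1.73, −1.66 and −2.93 within cells of distal, both and neither segment marker. Enpep was 1.02 under stricter gates, 4.06 with the fibroblast-like level subtracted (which holds 73.3 CPM of Enpep), and 2.61, 0.41, 0.75 and 0.77 within cells of proximal, distal, both and neither segment marker. The count of 1 gene at least 2-fold higher in absorptive cells at E17.5 was 2, with Alpi added, when the genes were kept in the clustering, under totals without mitochondrial and haemoglobin genes or without absorptive markers, with free RNA subtracted, and when scaled to the median gene, which shifts that step by 0.18. The count of 2 at P7 was 1 under stricter gates and under that scaling, where Lct was at 0.97. Sis was found in 71.6% of unthinned P7 enteroendocrine-like cells, and Lct in 87.3% of unthinned absorptive cells and 82.0% at 8000 UMIs. The segment marker classes, the matched score, the totals without absorptive markers and the removal of cells passing both gates were chosen after seeing the data. Few UMIs limit Treh at P7 and Sis outside enteroendocrine-like cells, and few cells limit the crypt-like kind before birth.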
